A study of Mus musculus with 10 samples.

Results

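The genes described here are the amino acid, glucose and monocarboxylate transporters of the solute carrier (Slc) families Slc1a, Slc2a, Slc3a, Slc6a, Slc7a, Slc16a, Slc36a, Slc38a and Slc43a. Members were taken by symbol, as protein-coding genes whose GRCm38 name starts with one of these family names, and their values were read in sorted mature B cells. Of 90 such genes in the annotation (GENCODE M21), 46 were among the 14450 genes of the deposited table, and all 46 were tested. The listed members were 2 of 2 in Slc3a, 10 of 16 in Slc7a, 3 of 3 in Slc43a, 3 of 7 in Slc1a, 7 of 11 in Slc38a, 3 of 4 in Slc36a, 7 of 21 in Slc6a, 5 of 12 in Slc2a and 6 of 14 in Slc16a. The other 44 were not among the listed genes and were not analysed here. One member, Slc7a6os, carries a family name only because it lies opposite Slc7a6 and is not itself a transporter.

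Mature B cells, Chat+ or Chat-, had been taken by cell sorting out of bone marrow, with Chat-GFP given as the mouse strain and steady state as the condition. In this reporter strain, green fluorescence marks cells that use Chat, the gene of the enzyme that makes acetylcholine, so the reporter and not the enzyme itself set the groups. There were 5 libraries of Chat+ cells and 5 libraries of Chat- cells, and all 10 came from the same strain, tissue and condition. The labels give neither the age of the mice nor whether replicates are different animals, so p-values here measure the spread between libraries only, and that spread may be technical.

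Solute carriers move small molecules across membranes. Lymphocytes take up glutamine, large neutral amino acids, arginine and glucose through a small set of them, and send lactate out through monocarboxylate transporters. Uptake genes of this kind are known to increase when B cells grow and divide, and amino acids that reach the lysosome are sensed by the kinase complex mTORC1. Several light chains of the Slc7a family work only when joined to the heavy chain encoded by Slc3a2. Some monocarboxylate transporters, such as Slc16a1, need a chaperone, basigin or embigin, to reach the cell surface.

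Values are CPM (counts per 1000000 counts), after removal of the offset of 0.115 CPM that the deposited log2 values contain. Fold changes are Chat+ over Chat- on the log2(CPM + 0.115) scale, which understates differences of low genes. The depth estimated from the low values was 21530000 to 30060000 reads per library, so that 1 read was worth 0.0383 CPM at the mean depth. The library Chat- replicate 4 stood apart, with 11.9% mitochondrial transcripts against 2.27% to 3.85% in the other 9 libraries and 1213 genes at the lowest value against 62 to 682. The B cell receptor component Cd79a had 1854 to 2159.9 CPM in Chat+ and 2085 to 2278 CPM in Chat-, and the B cell transcription factor Pax5 had 1133 to 1412 CPM in Chat+ and 1318 to 1430.2 CPM in Chat-. Of 12 proliferation markers 0 passed the test over all genes described next, and 11 had an unadjusted p under 0.05, all higher in Chat+. That count of 0 was not stable, since 5 of the 12 (Mki67, Top2a, Nusap1, Tpx2 and Kif11) passed without Chat+ replicate 5, 9 passed with library quality weights and 6 with the replicate block without the number 4 pair. The list summed to 427 to 747 CPM in Chat+ and to 332 to 422 CPM in Chat-. The 6 listed plasma cell markers summed to 248 to 518 CPM in Chat+ and to 184 to 292 CPM in Chat-, and 3 of them had an unadjusted p under 0.05. Of these 6 markers 0 passed, and 1 did with the replicate block without the number 4 pair. The 7 plasmacytoid dendritic cell markers summed to 604 to 765 CPM in Chat+ and to 574 to 795 CPM in Chat-, mostly from Irf8 and Tcf4, which B cells also use. Of the more specific ones, Cox6a2 averaged 0.00775 CPM in Chat+ and 0.833 CPM in Chat- without overlap, and Siglech 1.37 CPM in Chat+ and 4.33 CPM in Chat-. These 2 had an unadjusted p under 0.05, both lower in Chat+, and neither passed (limma adjusted p = 0.242 and 0.829), while Cox6a2 passed without the mean-variance trend. With library quality weights 1 of the 7 markers passed. Every listed gene had 0.391 CPM or more in at least 5 libraries, which Cox6a2 reached only in Chat-. Its lack of overlap and its small p are therefore in part set by its being listed. Stromal markers summed to 270.1 to 349.6 CPM in Chat+ and to 283 to 407 CPM in Chat-, with Chat- replicate 4 highest and 308 CPM next. Of these 8 markers 0 passed, and 2 did with the replicate block without the number 4 pair. Most of the stromal sum was Pecam1, while Col1a1 had 8.40 to 42.4 CPM in Chat+, and 111 CPM in Chat- replicate 4 against 7.59 to 12.4 CPM in the other Chat- libraries. Neutrophil markers summed to 21.8 to 128 CPM in Chat+ and to 43.2 to 104 CPM in Chat-. The one listed T cell marker, Cd4, stood at most at 1.3 CPM in Chat+ and 0.8 CPM in Chat-. The part of any of these cell or cycle markers in the transporter values was not tested. Since whole sorted populations were measured, fewer cells using a gene and less RNA per cell cannot be told apart.

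No transporter gene passed the test between Chat+ and Chat- cells. With limma and Benjamini-Hochberg adjustment over all 14450 genes, 0 of 46 members passed (smallest adjusted p = 0.949), where 1 gene (0.00692% of all genes tested) passed. That gene was the pseudogene Gm48111, named here after its value was seen. At an unadjusted p under 0.05 there were 5 of 46 members (10.9%), against a background of 651 genes (4.51%). Of these 5, 3 were higher in Chat+ (background 3.49%) and 2 were lower (background 1.01%). The 5 Chat+ values lay all above or all below the 5 Chat- values for 2 members, Slc6a21 and Slc3a2 (4.35%, background 1.43%). Every listed gene had 0.391 CPM or more in at least 5 libraries. Slc6a21 and Slc6a8, both counted as higher, reached this only with Chat+ libraries, so these counts are in part set by listing. With the filter at a mean of 1 CPM, 1 of 34 members was higher and 2 were lower at an unadjusted p under 0.05. Of all 12904 genes kept by that filter, 452 were higher and 128 lower. With library quality weights, 0 members passed and 7 had an unadjusted p under 0.05, beside 1310 of all 14450 genes. Without Chat- replicate 4 the members numbered 0 and 4, beside 774 genes higher and 284 lower at that unadjusted p. When each library was left out in turn, 1 to 6 members had an unadjusted p under 0.05. The count of 1 was without Chat- replicate 3 (426 genes higher and 92 lower), and that of 6 without Chat+ replicate 4 (644 genes). Without Chat- replicate 4 the log2 fold changes of the 5 members were -0.21 for Slc3a2, -0.19 for Slc38a1, 0.62 for Slc43a1, 1.32 for Slc6a21 and 1.81 for Slc6a8.

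The median log2 fold change was 0.08 over the 46 members and 0.04 over all genes, and 29 members (63.0%) had a fold change above 0, against a background of 57% of all genes. Without Chat- replicate 4 these were 26 members (56.5%) and 49.6% of all genes. How tightly a difference was bounded depended on the level. For all 22 members with a mean of at least 10 CPM, the 95% confidence interval of the log2 fold change lay between -1 and 1, and for 8 of them between -0.5 and 0.5. Their fold changes ran from -0.25 to 0.33 with a median of 0.00, and 11 of the 22 were above 0. Of all genes of that level, 5045 of 8940 were above 0, with a median of 0.02. For the 12 members with a mean of 1 to 10 CPM the interval lay between -1 and 1 in 4 cases, and for the 12 members under 1 CPM in 0 cases. Fold changes above 0 were seen for 8 of the 12 at 1 to 10 CPM (median 0.09). Under 1 CPM they were seen for 10 of the 12 (median 0.47). The share over all genes at these lower levels was not computed, and a low gene can be listed through 1 group, so no trend with level is read from these counts. Over the 34 members with a mean of at least 1 CPM the share above 0 was 55.9%, against 57.3% of all genes of that level. Between 0 and 6 members were listed at 0 in any one library, with the highest number in Chat- replicate 4.

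**Figure D1:**
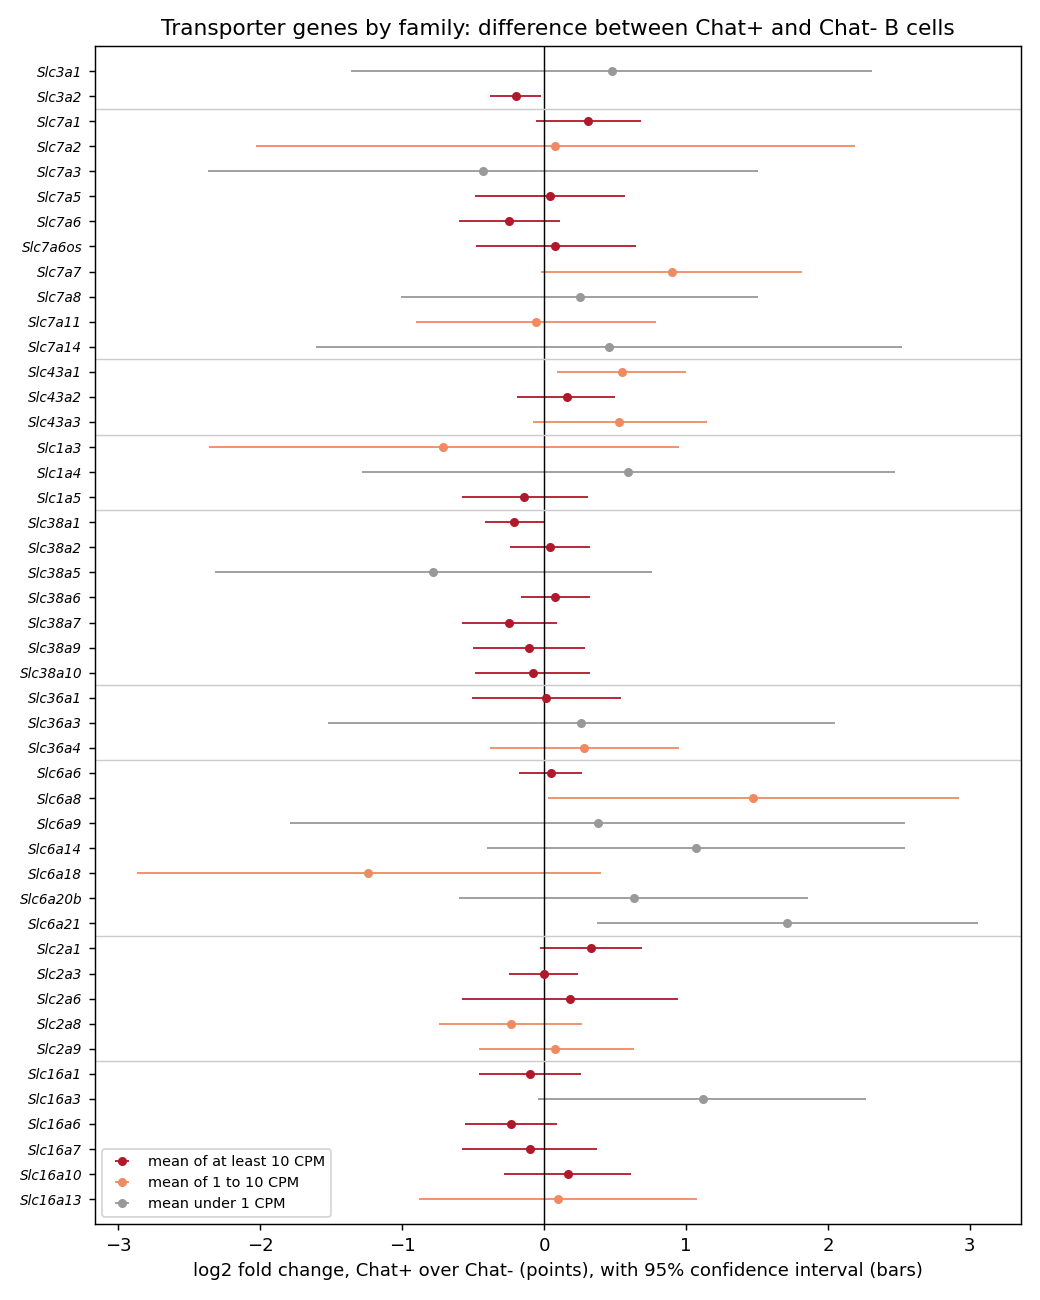
Log2 fold change of Chat+ over Chat- (points) with its 95% confidence interval (bars) for the 46 transporter genes, grouped by family down the page and coloured by mean CPM. The members with a mean of at least 10 CPM lie between -0.25 and 0.33, while the intervals of members under 1 CPM are wider.

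The summed level of the transporters overlapped between the groups. The CPM of all 46 members summed to 1924 to 2064 CPM per library in Chat+ and to 1937 to 2067 CPM in Chat-. Levels of different genes can be compared only per length, and are given here as CPM per kb of exon, counting every annotated exon base of a gene once. Annotated exons that these cells may not use count as well, so ranks and ratios per kb depend on the annotation. On that scale the order over all 10 libraries was led by Slc1a5 in both groups, with 63.6 CPM per kb in Chat+ and 69.2 CPM per kb in Chat-. Slc38a2 came next (32.8 CPM per kb in Chat+ and 32.0 CPM per kb in Chat-), then Slc3a2 (24.9 CPM per kb in Chat+ and 28.6 CPM per kb in Chat-) and Slc2a1 (23.0 CPM per kb in Chat+ and 18.2 CPM per kb in Chat-). In Chat- alone Slc2a1 lay below Slc16a6 (19.3 CPM per kb) and Slc38a1 (19.2 CPM per kb). Slc1a5 stood clear of Slc38a2 by more than the spread (mean ± SD) in both groups, but not in every library. In Chat+ replicate 5, Slc1a5 (159 CPM over 4173 exon bases) did not exceed Slc38a2 (344 CPM over 8838 exon bases) per kb. Slc38a2 and Slc3a2 were apart in Chat+ and overlapped in Chat-, Slc3a2 and Slc2a1 overlapped in Chat+ and were apart in Chat-, and the next 4 neighbours (Slc2a1, Slc16a6, Slc38a1 and Slc38a10) overlapped in both groups.

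**Figure D2:**
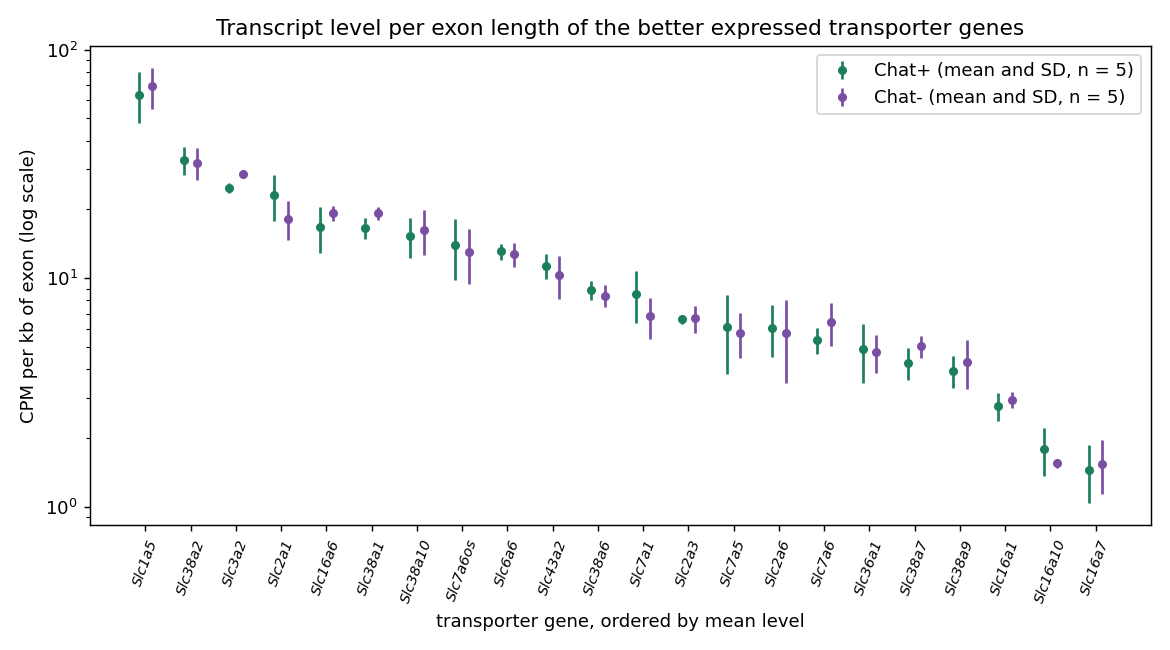
Level per exon length (CPM per kb, log axis) of the 22 transporter genes with a mean of at least 10 CPM, ordered by level, as mean and SD of 5 Chat+ libraries (left point of each gene) and 5 Chat- libraries (right point). Slc1a5 leads in both groups, at 63.6 CPM per kb in Chat+ and 69.2 CPM per kb in Chat-.

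The heavy chain Slc3a2 (4F2hc), which carries Slc7a light chains to the surface, was slightly lower throughout the Chat+ libraries. It had 80.1, 91.1, 90.6, 89.5 and 88.5 CPM in Chat+ replicates 1 to 5, against 106, 95.7, 101, 99.3 and 103 CPM in Chat- replicates 1 to 5. The Chat+ libraries reached at most 91.1 CPM and the Chat- libraries at least 95.7 CPM, so the groups did not overlap, and Chat+ replicate 1 lay apart below the others. The means were 88.0 ± 4.51 CPM for Chat+ and 101 ± 3.75 CPM for Chat- (SD, n = 5 each), and the difference did not pass (log2 fold change -0.20 ± 0.08 (SE), limma adjusted p = 0.999). The gene (ENSMUSG00000010095) is on the minus strand of GRCm38, chromosome 19 at 8706882 to 8723369. The other heavy chain, Slc3a1, which serves the kidney cystine transporter, was near the detection limit, at 0 to 1.31 CPM in Chat+ and 0 to 0.892 CPM in Chat-, and 26.5% of its exon bases overlap those of Prepl on the opposite strand.

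Promoter windows from 250 bases before to 50 bases after the RefSeq start (GRCm38.p6) are shown for Slc3a2, for Slc43a1, the highest in CPM of the 3 members that were higher in Chat+ at an unadjusted p under 0.05, and for Slc2a1, the main glucose transporter gene here. Capitals mark ACGTG on either strand, the core letters of hypoxia response elements, and CACGTG, the E-box letters read by Myc and related factors, which contain that core.
Slc3a2: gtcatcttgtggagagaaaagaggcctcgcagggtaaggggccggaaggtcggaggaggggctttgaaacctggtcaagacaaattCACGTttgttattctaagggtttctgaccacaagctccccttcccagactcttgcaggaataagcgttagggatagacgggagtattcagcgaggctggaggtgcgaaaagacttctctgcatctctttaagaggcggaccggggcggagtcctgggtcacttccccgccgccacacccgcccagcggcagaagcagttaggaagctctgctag
Slc43a1: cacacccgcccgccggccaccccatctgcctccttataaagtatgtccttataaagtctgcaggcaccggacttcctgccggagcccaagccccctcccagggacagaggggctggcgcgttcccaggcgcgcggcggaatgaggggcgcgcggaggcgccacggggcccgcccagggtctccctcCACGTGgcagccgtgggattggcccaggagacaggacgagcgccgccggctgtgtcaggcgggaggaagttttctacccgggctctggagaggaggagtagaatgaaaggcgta
Slc2a1: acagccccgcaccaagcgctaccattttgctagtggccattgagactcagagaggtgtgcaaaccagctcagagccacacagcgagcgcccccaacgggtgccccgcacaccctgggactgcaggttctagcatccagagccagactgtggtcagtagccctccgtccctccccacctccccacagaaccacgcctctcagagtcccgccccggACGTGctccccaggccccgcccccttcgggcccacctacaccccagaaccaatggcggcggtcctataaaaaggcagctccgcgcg
The windows are chr19:8713848-8714147 on the minus strand, chr2:84840073-84840372 on the plus strand and chr4:119108495-119108794 on the plus strand, in the order printed, and those of Slc3a2 and Slc43a1 lie inside the annotated gene, which has starts further upstream. Slc43a1 held the full CACGTG, while Slc3a2 and Slc2a1 held ACGTG without it. A promoter window was found for 33 of 46 members, 42 windows in all. ACGTG stood in 15 of these 42 windows (35.7%), against 19.6% of all 32817 windows of that length. CACGTG stood in 6 of 42 (14.3%), against 7.15%. The letters TGATGNAA, searched on both strands as part of the element read by the starvation factor Atf4, stood in 5 of 42 (11.9%), against 3.97%, and in none of the 3 windows shown. A match describes letters in these windows and says nothing about binding.

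Of the light chains that join Slc3a2, Slc7a5 (LAT1) takes up leucine and other large neutral amino acids and is a hallmark of activated lymphocytes. It had 27.4, 17.4, 15.9, 17.1 and 35.7 CPM in Chat+ replicates 1 to 5, against 16.6, 17.1, 20.6, 25.2 and 27.1 CPM in Chat- replicates 1 to 5. The highest level in either group was that of replicate 5, and the groups overlapped widely (log2 fold change 0.04, 95% confidence interval -0.49 to 0.57). Slc7a6 (y+LAT2), which exchanges cationic for neutral amino acids, had 25.7, 24, 27.4, 25.9 and 19.2 CPM in Chat+ replicates 1 to 5, against 26.3, 27.3, 30.2, 39.8 and 23.3 CPM in Chat- replicates 1 to 5. Its groups overlapped as well (log2 fold change -0.25, 95% confidence interval -0.60 to 0.11). Per kb, Slc7a5 stood at 1.21 ± 0.65 times the level of Slc7a6 in Chat+ and 0.921 ± 0.29 times in Chat- (SD, n = 5 each), with a spread that covers equal levels in both groups. Slc7a11 (xCT), which exchanges cystine for glutamate, was low, with 3.20 ± 1.55 CPM for Chat+ and 3.23 ± 1.24 CPM for Chat- (SD, n = 5 each; log2 fold change -0.06, 95% confidence interval -0.90 to 0.79). Slc7a8 (LAT2) had 0.367 to 2.06 CPM in Chat+ and 0.267 to 1.07 CPM in Chat-.

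Slc7a7 (y+LAT1), the close relative of Slc7a6 that is used by macrophages, had 7.35, 12.0, 2.36, 5.30 and 7.44 CPM in Chat+ replicates 1 to 5, against 3.90, 2.03, 3.42, 2.42 and 5.22 CPM in Chat- replicates 1 to 5. It is named here after its values were seen. Chat+ replicate 2 was the highest library and Chat+ replicate 3 lay inside the Chat- range (log2 fold change 0.90, 95% confidence interval -0.02 to 1.82). Oxa1l on the opposite strand shares 7% of its exon bases, and the strand setting used for counting is not given in the sources used here. The 9 monocyte and macrophage markers summed to 63.6 to 108 CPM in Chat+ and to 53.6 to 227 CPM in Chat-, with Chat- replicate 4 highest and 72.7 CPM next, and 0 of the 9 were listed at 0. With all libraries 5 of the 9 had a fold change above 0 (background 57%), with a median log2 fold change of 0.13. At an unadjusted p under 0.05, 0 were higher in Chat+ and 1 was lower, Vcam1 (log2 fold change -0.59), beside 505 and 146 of all 14450 genes. Without Chat- replicate 4, 6 of the 9 had a fold change above 0 (background 49.6%), with a median of 0.54. Of the 9, 5 were then higher in Chat+ at an unadjusted p under 0.05 and 0 lower, beside 774 and 284 of all genes, and 0 passed. The part of these markers in the level of Slc7a7 was not tested. The heavy chain relative to its 5 listed light chains (Slc7a5, Slc7a6, Slc7a7, Slc7a8 and Slc7a11, summed per kb) stood at a ratio of 1.82 ± 0.33 in Chat+ and 2.15 ± 0.33 in Chat- (SD, n = 5 each). This ratio was 1.47 to 2.21 in Chat+ libraries and 1.68 to 2.54 in Chat- libraries.

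**Figure D3:**
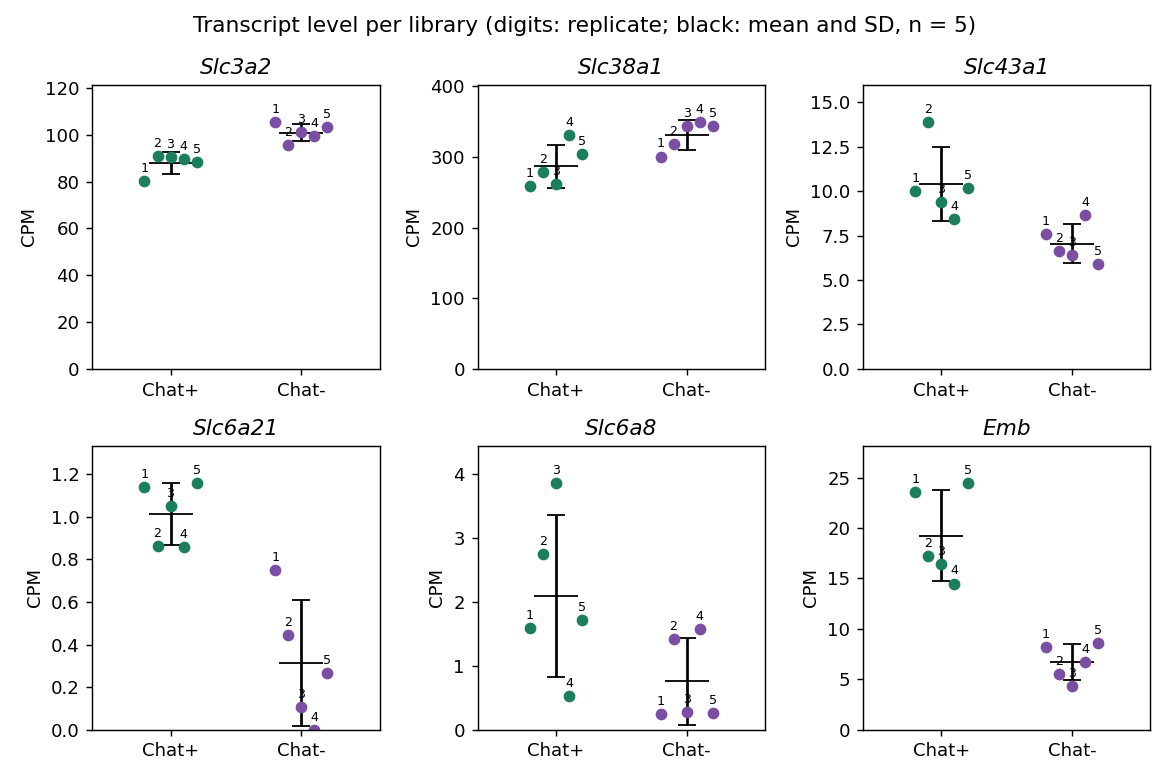
CPM per library (linear axes from 0) of the 5 transporter genes with an unadjusted p under 0.05 and of the chaperone gene Emb, with Chat+ libraries on the left and Chat- on the right of each panel, digits for the replicate and black marks for mean and SD (n = 5). The groups do not overlap for Slc3a2, Slc6a21 and Emb, and they overlap for Slc38a1, Slc43a1 and Slc6a8.

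Among the cationic amino acid transporters, Slc7a1 (CAT1), the general carrier of arginine and lysine, stood highest per length, at 8.54 CPM per kb in Chat+ and 6.82 CPM per kb in Chat-. It had 91.4, 75.2, 87.0, 97.3 and 142 CPM in Chat+ replicates 1 to 5, against 71.2, 76.5, 69.6, 69.2 and 107 CPM in Chat- replicates 1 to 5. Replicate 5 was the highest library of both groups, and all Chat+ values but that of replicate 2 lay above the 4 lower Chat- values (log2 fold change 0.31, 95% confidence interval -0.06 to 0.68). Without Chat+ replicate 5 the log2 fold change was 0.17. Slc7a2 (CAT2), the inducible relative, and Slc7a3 (CAT3) were low, with 0 to 2.01 CPM in Chat+ and 0 to 2.08 CPM in Chat- for Slc7a2 and 0 to 0.689 and 0 to 1.63 CPM for Slc7a3. Slc7a14, a lysosomal member, had 0 to 1.45 CPM in Chat+ and 0 to 1.78 CPM in Chat-. Slc7a6os averaged 59.0 ± 17.5 CPM for Chat+ and 54.7 ± 14.8 CPM for Chat- (SD, n = 5 each), and its lowest value in each group was that of replicate 5, 29.2 CPM in Chat+ and 36.0 CPM in Chat-.

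All 3 members of Slc43a had a fold change above 0, except that Slc43a2 stood at -0.04 with library quality weights, and none passed. Slc43a1 (LAT3), which lets large neutral amino acids flow down their gradient, had 10, 13.9, 9.42, 8.44 and 10.2 CPM in Chat+ replicates 1 to 5, against 7.61, 6.65, 6.41, 8.69 and 5.92 CPM in Chat- replicates 1 to 5. The groups met at their edges, since Chat- replicate 4 at 8.69 CPM lay just above Chat+ replicate 4 at 8.44 CPM. The means were 10.4 ± 2.08 CPM for Chat+ and 7.06 ± 1.10 CPM for Chat- (SD, n = 5 each; log2 fold change 0.55 ± 0.21 (SE), limma adjusted p = 0.999). Slc43a1 lies on chromosome 2 at 84838850 to 84863594 on the plus strand. Slc43a2 (LAT4), with the same kind of transport, was higher per length, at 11.3 CPM per kb in Chat+ and 10.3 CPM per kb in Chat-, against 1.82 CPM per kb in Chat+ and 1.23 CPM per kb in Chat- for Slc43a1. Slc43a2 had 108, 101, 124, 102 and 133 CPM in Chat+ replicates 1 to 5, against 100.3, 113, 112, 67.0 and 125 CPM in Chat- replicates 1 to 5. Chat- replicate 4 was the lowest of the 10 libraries (log2 fold change 0.16, 95% confidence interval -0.19 to 0.50, and 0.01 without that library), and a non-coding gene on the opposite strand, Gm45606, shares 9.18% of its exon bases. Slc43a3, a carrier of purine nucleobases, had 6.74 to 12.9 CPM in Chat+ and 3.72 to 8.84 CPM in Chat-.

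Glutamine and other small neutral amino acids are served by Slc1a5 and the Slc38a family. Slc1a5 (ASCT2), an exchanger of neutral amino acids including glutamine, had 336, 269, 258, 304 and 159 CPM in Chat+ replicates 1 to 5, against 332, 328, 309.7, 287 and 189 CPM in Chat- replicates 1 to 5. Replicate 5 was the lowest library of both groups, and the others lay between 258 and 336 CPM (log2 fold change -0.14, 95% confidence interval -0.58 to 0.31). Its relative Slc1a4 was low, at 0 to 1.47 CPM in Chat+ and 0 to 0.770 CPM in Chat-. Slc1a3, a glutamate and aspartate transporter best known from glia, had 0.488 to 3.06 CPM in Chat+ and 0.419 to 10.8 CPM in Chat-, with Chat- replicate 4 alone above 2.17 CPM in that group.

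Slc38a1 (SNAT1), a sodium-coupled transporter of glutamine and alanine, had 259, 279, 262, 331 and 304 CPM in Chat+ replicates 1 to 5, against 301, 319, 344, 349.7 and 344 CPM in Chat- replicates 1 to 5. The 3 lowest libraries were all Chat+, and Chat+ replicates 4 and 5 lay inside the Chat- range. The means were 287 ± 30.6 CPM for Chat+ and 331 ± 20.8 CPM for Chat- (SD, n = 5 each; log2 fold change -0.21 ± 0.10 (SE), limma adjusted p = 0.999). The gene lies on chromosome 15 at 96571418 to 96642913. Slc38a2 (SNAT2), which carries the same substrates and is known to be induced when amino acids run short, had 241, 263, 304, 299 and 344 CPM in Chat+ replicates 1 to 5, against 234, 261, 267, 355 and 296 CPM in Chat- replicates 1 to 5. Its groups overlapped almost fully (log2 fold change 0.04, 95% confidence interval -0.24 to 0.32). Per kb, Slc38a2 stood at 1.98 ± 0.24 times Slc38a1 in Chat+ and 1.66 ± 0.19 times in Chat- (SD, n = 5 each), with 1.76 to 2.26 in Chat+ libraries and 1.51 to 1.98 in Chat- libraries. This ratio rests largely on the annotated exon bases, 8838 for Slc38a2 and 17236 for Slc38a1. Slc38a5, another glutamine transporter, had 0 to 0.817 CPM in Chat+ and 0.203 to 1.14 CPM in Chat-.

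The remaining Slc38a members and the Slc36a family include carriers of the lysosome membrane. Slc38a9, which reports lysosomal arginine to mTORC1, had 80.1, 67.2, 67.9, 63.5 and 50.3 CPM in Chat+ replicates 1 to 5, against 72.8, 72.8, 78.7, 91.4 and 44.4 CPM in Chat- replicates 1 to 5. Replicate 5 was the lowest library of both groups (log2 fold change -0.11, 95% confidence interval -0.50 to 0.29). Slc36a1 (PAT1), a proton-coupled exporter of small amino acids from lysosomes, had 29.5, 35.0, 28.8, 30.7 and 13.9 CPM in Chat+ replicates 1 to 5, against 27.2, 27.9, 30.1, 29.8 and 18.0 CPM in Chat- replicates 1 to 5. Again replicate 5 was lowest in both groups, and the remaining values lay between 27.2 and 35.0 CPM (log2 fold change 0.01, 95% confidence interval -0.51 to 0.54). Slc38a7, a lysosomal glutamine exporter in human cells, had 15.3 to 21.8 CPM in Chat+ and 18.1 to 24 CPM in Chat-. Slc38a10 averaged 97.8 ± 19.4 CPM for Chat+ and 104 ± 23.6 CPM for Chat- and Slc38a6 69.1 ± 6.64 CPM for Chat+ and 65.3 ± 7.31 CPM for Chat- (SD, n = 5 each). Slc36a4 had 4.30 to 9.49 CPM in Chat+ and 3.45 to 7.30 CPM in Chat-, and Slc36a3 0 to 0.969 CPM in Chat+ and 0 to 0.765 CPM in Chat-.

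In the Slc6a family of sodium- and chloride-coupled carriers, the taurine transporter Slc6a6 was the one member above 10 CPM. It had 109, 104, 117, 101 and 123 CPM in Chat+ replicates 1 to 5, against 94.3, 100.1, 103, 111 and 128 CPM in Chat- replicates 1 to 5, and its interval was among the narrower ones (log2 fold change 0.05, 95% confidence interval -0.18 to 0.27). Slc6a21 had 1.14, 0.861, 1.05, 0.857 and 1.16 CPM in Chat+ replicates 1 to 5, against 0.749, 0.446, 0.106, 0 and 0.266 CPM in Chat- replicates 1 to 5. All Chat+ values lay above all Chat- values, with Chat- replicate 4 listed at 0, but at these levels a library held few reads of the gene. Every listed gene had 0.391 CPM or more in at least 5 libraries, which Slc6a21 reached only with Chat+ libraries. Its lack of overlap is therefore not independent of its being listed. The difference did not pass (log2 fold change 1.71 ± 0.62 (SE), limma adjusted p = 0.949), and the fitted fold depends on the offset. With 1 CPM in place of the deposited offset, the log2 fold change was 0.64. Slc6a21 lies on chromosome 7 at 45277513 to 45288998.

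Slc6a8, the creatine transporter, had 1.59, 2.75, 3.86, 0.530 and 1.71 CPM in Chat+ replicates 1 to 5, against 0.237, 1.42, 0.282, 1.58 and 0.266 CPM in Chat- replicates 1 to 5. Chat+ replicate 4 lay inside the Chat- range, and the 4 highest libraries were all Chat+. Like Slc6a21, Slc6a8 reached 0.391 CPM in at least 5 libraries only with Chat+ libraries. The difference did not pass (log2 fold change 1.47 ± 0.67 (SE), limma adjusted p = 0.999). With 1 CPM in place of the deposited offset its log2 fold change was 0.79. Slc6a9 (the glycine transporter GlyT1), Slc6a14, Slc6a18 and Slc6a20b had 0 to 2.31 CPM in Chat+ libraries and 0 to 3.57 CPM in Chat- libraries.

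Glucose uptake genes were led by Slc2a1 (GLUT1), the main glucose carrier of activated lymphocytes. It had 63.7, 71.3, 75.6, 81.5 and 112 CPM in Chat+ replicates 1 to 5, against 49.9, 67.4, 61.6, 57.8 and 82.9 CPM in Chat- replicates 1 to 5. Replicate 5 was the highest library of both groups. The means were 80.8 ± 18.4 CPM for Chat+ and 63.9 ± 12.4 CPM for Chat- (SD, n = 5 each), and the groups overlapped (log2 fold change 0.33 ± 0.17 (SE), limma adjusted p = 0.999). Without Chat+ replicate 5 its log2 fold change was 0.21. Slc2a1 lies on chromosome 4 at 119108711 to 119137983 on the plus strand. The 8 erythroid markers, all of them above 0 in every library, summed to 531 to 888 CPM in Chat+ and 452 to 1087 CPM in Chat-. Their part in the level of Slc2a1 was not tested.

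Slc2a3 (GLUT3), a high-affinity glucose carrier, had 48.4, 45.0, 51.0, 46.5 and 48.1 CPM in Chat+ replicates 1 to 5, against 48.2, 50.5, 57.4, 39.0 and 46.2 CPM in Chat- replicates 1 to 5. The groups overlapped, and the difference was bounded closely (log2 fold change 0.00, 95% confidence interval -0.25 to 0.24). Per kb, Slc2a1 stood at 3.50 ± 0.80 times Slc2a3 in Chat+ and 2.78 ± 0.65 times in Chat- (SD, n = 5 each). The libraries ranged from 2.72 to 4.79 in Chat+ and from 2.14 to 3.71 in Chat-. Slc2a6 (GLUT6) had 12.2 to 24.7 CPM in Chat+ and 6.09 to 24.8 CPM in Chat-, where replicate 4 was the lowest. Slc2a8 (GLUT8) and the urate carrier Slc2a9 had 4.80 to 9.68 CPM in Chat+ and 4.69 to 9.85 CPM in Chat-.

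Of the monocarboxylate transporters, the lactate carrier Slc16a1 (MCT1) had 14.0, 11.6, 12.7, 13.1 and 9.53 CPM in Chat+ replicates 1 to 5, against 14.3, 11.6, 12.2, 13.6 and 13.3 CPM in Chat- replicates 1 to 5, with overlapping groups (log2 fold change -0.10, 95% confidence interval -0.46 to 0.26). Slc16a3 (MCT4), the lactate exporter of strongly glycolytic cells, was lower per length, at 0.234 CPM per kb in Chat+ and 0.0898 CPM per kb in Chat-, against 2.75 CPM per kb in Chat+ and 2.94 CPM per kb in Chat- for Slc16a1. Slc16a3 had 1.63, 2.07, 0.582, 0.612 and 1.32 CPM in Chat+ replicates 1 to 5, against 0.552, 0.203, 0.423, 0.511 and 0.699 CPM in Chat- replicates 1 to 5. The 3 highest libraries were Chat+ replicates 1, 2 and 5, and the difference did not pass (log2 fold change 1.12 ± 0.53 (SE), limma adjusted p = 0.999). With 1 CPM in place of the deposited offset its log2 fold change was 0.56. The highest member per length was Slc16a6 (MCT7), at 16.7 CPM per kb in Chat+ and 19.3 CPM per kb in Chat-. Slc16a6 had 100.2, 98.2, 61.6, 84.7 and 62.7 CPM in Chat+ replicates 1 to 5, against 101, 94.8, 96.1, 95.7 and 82.4 CPM in Chat- replicates 1 to 5. Chat+ replicates 3 and 5 lay below all other libraries (log2 fold change -0.23, 95% confidence interval -0.56 to 0.09), and exons of the opposite-strand gene Amz2 overlap 21.5% of its exon bases. Slc16a7 (MCT2) had 12.3 to 25.1 CPM in Chat+ and 14.8 to 26.7 CPM in Chat-. The aromatic amino acid carrier Slc16a10 (TAT1) had 8.03 to 16.0 CPM in Chat+ and 10.8 to 12.1 CPM in Chat-, and Slc16a13 had 1.82 to 5.35 CPM in Chat+ and 1.11 to 4.10 CPM in Chat-.

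Among the chaperones of these carriers, one gene stood out by its values. Emb, which encodes embigin, a partner of Slc16a1 and Slc16a7, had 23.6, 17.2, 16.4, 14.5 and 24.5 CPM in Chat+ replicates 1 to 5, against 8.24, 5.56, 4.36, 6.69 and 8.55 CPM in Chat- replicates 1 to 5. Every Chat+ library lay at least at 14.5 CPM and every Chat- library at most at 8.55 CPM. The means were 19.2 ± 4.5 CPM for Chat+ and 6.68 ± 1.77 CPM for Chat- (SD, n = 5 each), and the difference missed the threshold (log2 fold change 1.52 ± 0.24 (SE), limma adjusted p = 0.0872). Emb passed with library quality weights (limma adjusted p = 0.0042), and its adjusted p ranged from 0.0035 to 0.30 over all alternatives run. Bsg, the gene of basigin and the partner of Slc16a1 and Slc16a3, averaged 103 ± 18.5 CPM for Chat+ and 102 ± 13.9 CPM for Chat- (SD, n = 5 each), and Nptn and Arl6ip5 also had overlapping groups. The partner list, drawn up with earlier results of these data known, had 6 of 8 genes listed, with 0 past the threshold. At an unadjusted p under 0.05 there were 2, Emb and Slc3a2 (background 4.51% of all genes), and Slc3a2 is also among the members counted above.

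Genes that use or sense the same nutrients gave 0 genes past the threshold in any of 5 further lists. Over these 5 lists and the partner list, 96 genes other than transporters were listed. Of 27 listed genes of amino acid sensing and mTORC1, 18 of the Atf4 starvation response and 13 of glutamine and amino acid use, 0 had an unadjusted p under 0.05 with limma. Their smallest p-values belonged to Rheb, Rraga and Rragd (log2 fold changes 0.26, -0.17 and -0.71), to Gpt2, Phgdh and Psat1 (0.99, 0.33 and 0.34), and to Got2, Glud1 and Odc1 (0.29, 0.15 and 0.29). The median log2 fold changes of these 3 lists were 0.06, 0.10 and 0.06, against 0.04 over all genes.

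Of 23 listed genes of glycolysis and lactate, 1 had an unadjusted p under 0.05, Pgk1, the phosphoglycerate kinase that yields ATP in glycolysis. It had 115, 120.1, 99.6, 91.5 and 114 CPM in Chat+ replicates 1 to 5, against 93.2, 82.8, 79.1, 51.5 and 81.6 CPM in Chat- replicates 1 to 5. Only Chat- replicate 1 reached the Chat+ range, and the difference did not pass (log2 fold change 0.49 ± 0.15 (SE), limma adjusted p = 0.692). The next genes by p were Aldoc and Mpc2 (log2 fold changes 0.58 and 0.29), and 17 of the 23 had a fold change above 0 (background 57%), with a median of 0.11. Chat- replicate 4 was the lowest Chat- library for 15 of the 23, and without it 13 of the 23 (background 49.6%) had a fold change above 0, with a median of 0.04. Of 14 listed transcription factors tied to nutrient uptake, 1 had an unadjusted p under 0.05, Myc, which drives growth and many uptake genes. It had 62.6, 52.1, 49.2, 50.5 and 95.4 CPM in Chat+ replicates 1 to 5, against 41.7, 39.5, 40.1, 28.7 and 53.7 CPM in Chat- replicates 1 to 5. Replicate 5 was again the highest library of both groups (log2 fold change 0.58 ± 0.20 (SE), limma adjusted p = 0.873). Tfe3 and Foxo1 followed, each with a log2 fold change of -0.18, and the list median was -0.05.

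Many transporters had their extreme values at the same replicate number in both groups. Of the 22 members with a mean of at least 10 CPM, 6 had their highest value in replicate 5 of both groups (Slc2a1, Slc38a7, Slc43a2, Slc6a6, Slc7a1 and Slc7a5). Another 5 had their lowest value there (Slc1a5, Slc36a1, Slc38a9, Slc7a6 and Slc7a6os). Together these are 50% of the 22 members, against 20.7% of the 8940 genes of at least 10 CPM. For replicate 1 the shares were 31.8% and 12.1%, and for replicates 2, 3 and 4 they were 4.55% each, against 7.26%, 5.13% and 7.49%. The labels do not say what a shared replicate number stands for, and a batch or animal behind it was not tested.

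**Figure D4:**
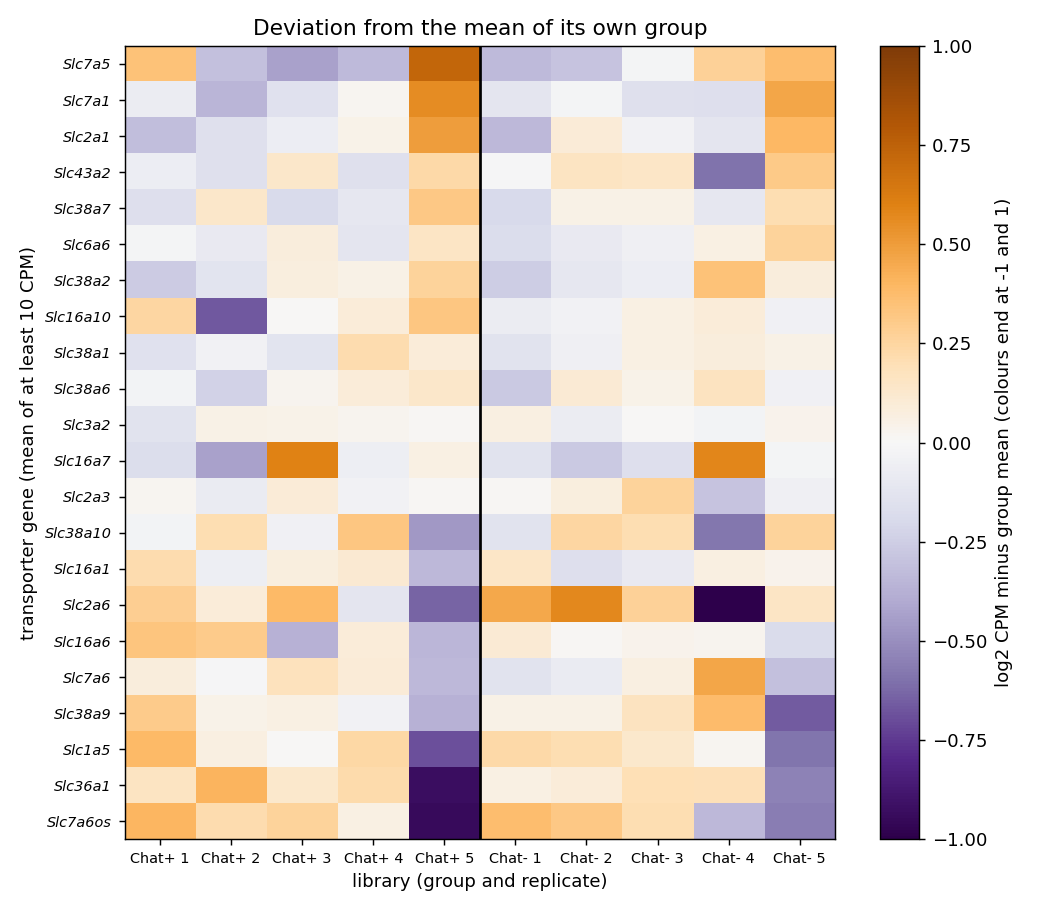
Log2 CPM of each library minus the mean of its own group, for the 22 transporter genes with a mean of at least 10 CPM (rows, ordered by the summed deviation of both replicate 5 libraries) in the 5 Chat+ libraries (left of the black line) and the 5 Chat- libraries (right). Slc7a5, Slc7a1 and Slc2a1 are above their group means, and Slc1a5, Slc36a1 and Slc7a6os below them, in replicate 5 of both groups.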

How the data were processed

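Total RNA was purified with a column kit for small samples, and the library kits named include a directional one (per the labels' protocols). The submitters' processing notes list cutadapt 2.6, Salmon 0.14.2 and the build GRCm38.p6, in no stated order or role. The sources used here give no annotation and no strand setting. The authors deposited log2 values of CPM plus one offset, which is the lowest value of the table. With it removed, each library sums to 1000000 CPM. Depth was estimated as the number of reads that makes the most values under 3 CPM whole. Since 36.5% to 50.2% per library were whole within 0.002 reads, reads were not recovered and no count model was used.

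The deposited log2 values of all 14450 genes were tested with limma 3.58.1 in R 4.3.3 (eBayes with a mean-variance trend, group as the only term, two-sided, Benjamini-Hochberg over all genes, threshold 0.05). The test was also run on simulated data with large changes, in better expressed genes and without an outlying library. That run says nothing about small differences or about genes near the detection limit. Symbols matched 14374 gene identifiers, and gene lengths and places came from GENCODE M21 (GRCm38). Promoters came from RefSeq. Tables were made in Python 3.11.15 with pandas 2.3.3.

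Members described in full were those with an unadjusted p under 0.05, those whose groups did not overlap, the 10 highest per kb and 15 textbook lymphocyte transporters, 22 in all. The pathway lists give the 3 genes with the smallest p. Members and lists were chosen with earlier results of these data known. Alternatives were a replicate block, library weights, median scaling, a pseudocount of 1 CPM, a filter at a mean of 1 CPM, no trend and leaving out each library. A block without both number 4 libraries was added after seeing the data. The summed level of the B cell marker list is not reported here.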

Additional observations from a re-analysis of the deposited data

Results flagged for a closer look

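In 6 of 92 combinations of a member and a group, 1 library lay far from the 4 others of its group, where chance gives about 1 in 20. Chat- replicate 4 was highest for Slc16a7 (26.7 CPM, others 14.8 to 17.6 CPM), for Slc1a3 (10.8 CPM, others 0.419 to 2.17 CPM) and for Slc6a18 (3.57 CPM, others 0.777 to 1.47 CPM). Chat- replicate 5 was lowest for Slc36a1 (18.0 CPM, others 27.2 to 30.1 CPM) and highest for Slc7a1 (106.8 CPM, others 69.2 to 76.5 CPM). Chat+ replicate 1 was lowest for Slc3a2 (80.1 CPM, others 88.5 to 91.1 CPM).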

How the results depend on the processing

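No member passed under any of the 17 alternatives, with a smallest adjusted p of 0.15 (limma), for Slc6a8 with the replicate block without the number 4 pair. Of the 22 members described in full, 12 kept the sign of their fold change in every alternative that gave them a value. The filter at a mean of 1 CPM gave none for Slc6a21 and Slc16a3. Over all genes the count past the threshold was 1, against 6 with the replicate block, 105 with library quality weights, 3 without the mean-variance trend, 89 with the replicate block without the number 4 pair, and 1 to 6 when each library was left out. It was 6 without Chat+ replicate 5 or Chat- replicate 4 and 2 without Chat- replicate 1 or Chat- replicate 3. At an unadjusted p under 0.05 the members numbered 5, against 1 to 8 over the alternatives. The count of 8 was with the replicate block without the number 4 pair, where 1077 of all genes were higher and 905 lower at that p. Of the pathway genes, 0 passed, against 1 (Emb) with quality weights and 1 (Emb) with the block without the number 4 pair. Members close to 0 changed sign. Slc16a1 was at 0.02 and Slc43a2 at -0.04 with quality weights, Slc36a1 at -0.02 with median scaling, and Slc7a11 at 0.27 and Slc7a6os at -0.01 with the block without the number 4 pair. Leaving out each library gave -0.29 to 0.03 for Slc1a5, -0.08 to 0.06 for Slc2a3, -0.12 to 0.24 for Slc36a1, -0.23 to 0.03 for Slc38a10, -0.02 to 0.13 for Slc38a2, -0.28 to 0.13 for Slc7a11, -0.14 to 0.15 for Slc7a5 and -0.05 to 0.32 for Slc7a6os. Without a change of sign, the range over left-out libraries was -0.15 to -0.02 for Slc16a1, -0.32 to -0.14 for Slc16a6, 0.21 to 0.43 for Slc2a1, -0.27 to -0.01 for Slc38a9, 0.01 to 0.23 for Slc43a2, 0.00 to 0.11 for Slc6a6, 0.17 to 0.43 for Slc7a1 and -0.33 to -0.13 for Slc7a6. With log2(CPM + 1), Slc6a21, Slc6a8 and Slc16a3 stood at 0.64, 0.79 and 0.56. The cause of these shifts was not tested. Equal replicate numbers correlated by -0.21 to 0.26 between groups (deviations from group means, genes of at least 1 CPM). Of 5 Chat+ libraries 3 matched their own number best, which does not decide whether the numbers pair the samples. The block cannot change a fold change here, and with it Slc2a1 had a limma unadjusted p of 0.0087 (adjusted p = 0.68). The limma unadjusted p of Slc7a1 went from 0.0955 to 0.0148 with the block. That of Slc3a2 went from 0.0289 to 0.0502 and that of Slc6a8 from 0.0463 to 0.0784. For members under 1 CPM no interval lay between -1 and 1, and the share of counting error in that was not tested.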
